A study of Mus musculus with 16 samples.

Results

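Interferon-stimulated genes were followed across the livers of wild-type mice (WT) and of mice with a liver-specific deletion of Zfp36l1 (LKO), on a control diet or an ethanol-containing one. The set held 44 genes named by symbol: 4 transcription factors, 4 nucleic acid sensors, 6 members of the oligoadenylate synthetase (OAS) family, 4 members of the IFIT family, 11 other antiviral effectors, 7 genes of the ISG15, ubiquitin and ADP-ribose systems, and 8 interferon-inducible GTPases. All 44 had an entry among the 35275 genes of the deposited table, and all 44 were above 0 in at least 4 of the 16 libraries. The labels gave 4 groups of 4 libraries: WT control, WT ethanol, LKO control and LKO ethanol. The labels give liver RNA as the source and total RNA as the molecule. Strain, sex, age, diet composition, feeding time and the driver of the deletion were not given in the sources used here. The labels do not say that the libraries of a group came from separate animals, so p-values measure the spread between these samples.

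Interferons are secreted signals of infection and tissue damage. Type I interferons act through the receptor chains Ifnar1 and Ifnar2 and the kinases Jak1 and Tyk2, and a complex that holds Stat2 and Irf9 then binds interferon-stimulated response elements. Interferon gamma has its own receptor, and its signal reaches gamma-activated sites. The target genes restrict viruses and intracellular bacteria, and some of them, such as Irf7 and Usp18, raise or dampen the response itself. In the liver, hepatocytes and the resident macrophages (Kupffer cells) both respond to interferon. Zfp36l1 is a zinc finger protein that binds AU-rich elements of mRNAs and promotes their decay.

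Levels are given as FPKM, the fragments counted on a gene per kilobase of its length scaled to the fragments of the library. Differences were tested as log2(FPKM + 1) with limma over all 11298 genes that reached 1 FPKM in at least 4 libraries, and a gene was called at a Benjamini-Hochberg adjusted p under 0.05. Of the 44 members, 43 passed this filter, and Oas3 did not. Log2 fold changes below are on the log2(FPKM + 1) scale, which understates changes of low genes.

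Zfp36l1 itself stood at 14.9 ± 7.54 FPKM (SD, n = 4) in WT control, 16.8 ± 6.37 FPKM in WT ethanol, 1.17 ± 0.286 FPKM in LKO control and 1.15 ± 0.610 FPKM in LKO ethanol. The 2 LKO groups lay below both WT groups, with log2 fold changes of -2.77 on the control diet (adjusted p = 0.00148) and -3.02 on the ethanol diet (adjusted p = 0.000428). Library totals, worked out from the steps in the FPKM values, ranged from 19069903 to 24768569 reads in 15 libraries. WT ethanol library 2 had 9890475 reads and stood apart from the rest. Its FPKM values summed to 816466, while the other libraries summed to between 498052 and 568142, and 4 members (Isg20, Mx1, Ifi44 and Gbp2) were listed at 0 in it. Counts and medians of the members are therefore given with and without it, and so are single values of members that it moved by over 1.5 times. Libraries 1 and 2 of each group lay apart from libraries 3 and 4 along the main direction of variation within groups, and differences are also given within each of these 2 sides. Library numbers follow the order of the records, and the labels name no batch. The 6 hepatocyte markers were above 0 in every library, and their sum ranged from 41832 to 72380.5 FPKM.

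Promoter sequence was not used to choose the members. Of the 44 members, 33 had a promoter window (from 250 bases before to 50 after the start of the gene) in the RefSeq table for GRCm38.p6. The interferon-stimulated response element was searched on both strands as TTTC, any 2 bases and TTTC again, and the gamma-activated site as TTCNNNGAA, which reads the same on both strands. The response element was present in 20 of the 33 members (60.6%) and in 3.99% of all 27025 genes with a window. The gamma-activated site was present in 10 of the 33 members (30.3%) and in 9.55% of all genes. Both motifs occurred in 6 members and neither in 9. The first base of the response element nearest to the start lay between position -222 and position 32, with a median of -56. A match is a description of these letters only, and no match says only that the letters are not in this window.

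The windows of 6 members are printed 5′ to 3′ in the direction of the gene, because they are the first 6 members with a window when those called with or without WT ethanol library 2 come first and the others follow by their smallest p. Capitals mark the motifs. No window was at hand for Iigp1, Ifi27, Zbp1, Parp14, Dhx58, Parp9, Usp18, Oas2, Rtp4, Mx2 and Mx1. Oasl1, the only member called with all 16 libraries at equal weight and unscaled FPKM, had no match to either motif in its window, and Rsad2 had 1 response element at -120. Isg20 and Ifi35 each had 1 gamma-activated site, at -73 and at 7. The neighbours Oas1g and Oas1a both had 2 response elements that overlap each other and lie on the other strand, at -18 and -12 in Oas1g and at -20 and -14 in Oas1a. Oas1a also had a gamma-activated site at -98. Aligned over 306 positions, the windows of Oas1a and Oas1g were identical at 261 (85.3%), and since strand and handling of shared reads are not given in the sources used here, levels of near-identical family members can hold reads of each other.
Oasl1, chr5:114922990-114923289, plus strand: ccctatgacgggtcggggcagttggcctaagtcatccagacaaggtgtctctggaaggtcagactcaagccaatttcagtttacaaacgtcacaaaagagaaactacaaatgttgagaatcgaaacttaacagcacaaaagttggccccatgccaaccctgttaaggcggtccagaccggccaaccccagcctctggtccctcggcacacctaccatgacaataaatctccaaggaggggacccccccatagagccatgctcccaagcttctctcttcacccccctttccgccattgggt
Rsad2, chr12:26456403-26456702, minus strand: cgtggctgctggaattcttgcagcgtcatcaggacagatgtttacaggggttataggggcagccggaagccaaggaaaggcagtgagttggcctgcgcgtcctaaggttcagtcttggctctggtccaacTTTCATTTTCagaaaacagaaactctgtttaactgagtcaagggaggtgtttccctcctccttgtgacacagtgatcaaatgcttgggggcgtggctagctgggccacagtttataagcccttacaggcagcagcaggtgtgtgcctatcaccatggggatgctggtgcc
Isg20, chr7:78913174-78913473, plus strand: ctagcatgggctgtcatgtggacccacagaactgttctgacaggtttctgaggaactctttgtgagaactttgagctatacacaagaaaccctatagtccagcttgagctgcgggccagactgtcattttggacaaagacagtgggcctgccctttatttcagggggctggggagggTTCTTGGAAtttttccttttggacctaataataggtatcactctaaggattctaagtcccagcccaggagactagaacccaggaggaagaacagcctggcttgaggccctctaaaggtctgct
Ifi35, chr11:101448162-101448461, plus strand: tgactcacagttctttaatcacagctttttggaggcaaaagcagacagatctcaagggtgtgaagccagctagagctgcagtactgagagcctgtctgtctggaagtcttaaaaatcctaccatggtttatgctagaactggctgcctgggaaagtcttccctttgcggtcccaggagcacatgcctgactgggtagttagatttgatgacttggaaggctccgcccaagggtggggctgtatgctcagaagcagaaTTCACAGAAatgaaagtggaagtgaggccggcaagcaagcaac
Oas1g, chr5:120887564-120887863, minus strand: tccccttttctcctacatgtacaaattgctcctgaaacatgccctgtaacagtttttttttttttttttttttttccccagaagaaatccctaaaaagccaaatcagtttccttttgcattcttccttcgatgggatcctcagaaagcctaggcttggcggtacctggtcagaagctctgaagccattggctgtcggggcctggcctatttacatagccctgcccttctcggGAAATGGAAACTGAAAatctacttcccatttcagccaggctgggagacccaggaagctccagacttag
Oas1a, chr5:120907476-120907775, minus strand: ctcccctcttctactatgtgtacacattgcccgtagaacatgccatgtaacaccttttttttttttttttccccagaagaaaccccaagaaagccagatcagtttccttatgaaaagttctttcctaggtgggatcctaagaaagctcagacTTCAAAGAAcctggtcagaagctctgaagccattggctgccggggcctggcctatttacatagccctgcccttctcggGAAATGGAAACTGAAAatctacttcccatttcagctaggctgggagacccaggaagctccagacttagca

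The first comparison asked how the ethanol diet changed the members in each genotype. The members did not shift together with the diet: in both genotypes some ethanol livers held higher levels of most members than every control liver, and others held lower levels of most members. Of the 43 members tested, WT ethanol library 4 had 38 above all 4 WT control libraries and 0 below, and WT ethanol library 3 had 30 above and 2 below. WT ethanol library 1 had 5 above and 23 below, and WT ethanol library 2 had 3 above and 32 below. Of all genes tested, 57.9%, 47.3%, 24.3% and 22.0% lay above all controls in WT ethanol libraries 4, 3, 1 and 2, and 11.3%, 12.8%, 35.8% and 63.3% lay below, so that most genes, not only members, were low in library 2. Among the LKO livers, ethanol library 2 had 34 members above all 4 LKO controls (44.3% of all genes) and 1 below (20.02%), and library 4 had 23 above (32.3%) and 7 below (16.8%), the last a share close to that of all genes. LKO ethanol library 1 had 5 above (28.5%) and 21 below (23.0%), and LKO ethanol library 3 had 2 above (22.1%) and 37 below (32.5%). Since these are bulk liver RNA libraries, more cells of a type and more RNA per cell cannot be told apart in any of these values.

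**Figure D1:**
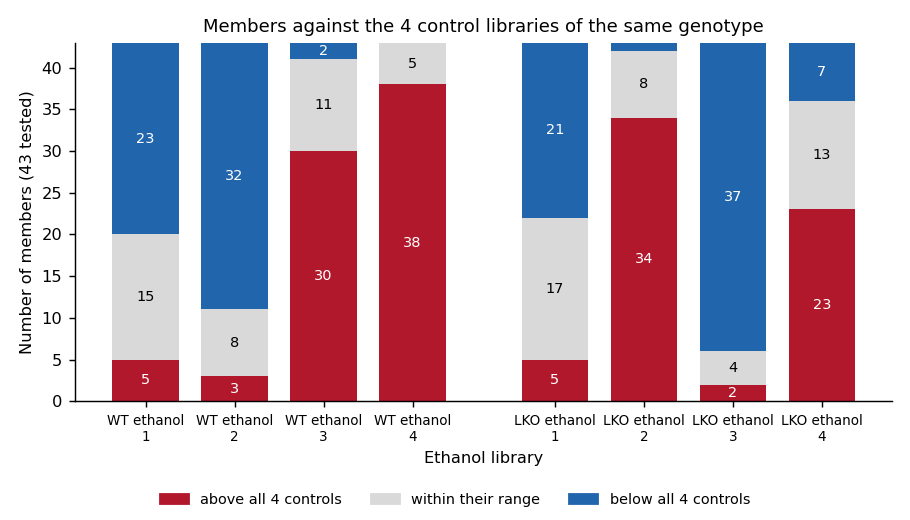
Number of the 43 tested members (y axis) that lay above, within or below the range of the 4 control libraries of the same genotype, for each ethanol library (x axis, group and library number). WT ethanol libraries 3 and 4 and LKO ethanol library 2 have 30, 38 and 34 members above all controls, while WT ethanol library 2 and LKO ethanol library 3 have 32 and 37 below.

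The spread between libraries was wider on ethanol for nearly all members. In LKO, the SD of log2(FPKM + 1) was larger on the ethanol diet for 42 of 43 members, beside 65.4% of all genes tested, and the median SD of the members was 0.20 on the control diet and 0.68 on ethanol. In WT it was larger for all 43 members, beside 90.6% of all genes, with medians of 0.28 and 1.04. Without WT ethanol library 2 it was larger for 38 members, beside 66.6% of all genes, with an ethanol median of 0.69. For all genes tested, the median SD in LKO was 0.23 on the control diet and 0.29 on ethanol. The spread of the members on ethanol thus exceeded that of the median gene in LKO and in WT, where all genes had a median SD of 0.64, or 0.33 without library 2. On the control diet the members' median was above that of all genes in WT (0.28 and 0.24) and below it in LKO (0.20 and 0.23).

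**Figure D2:**
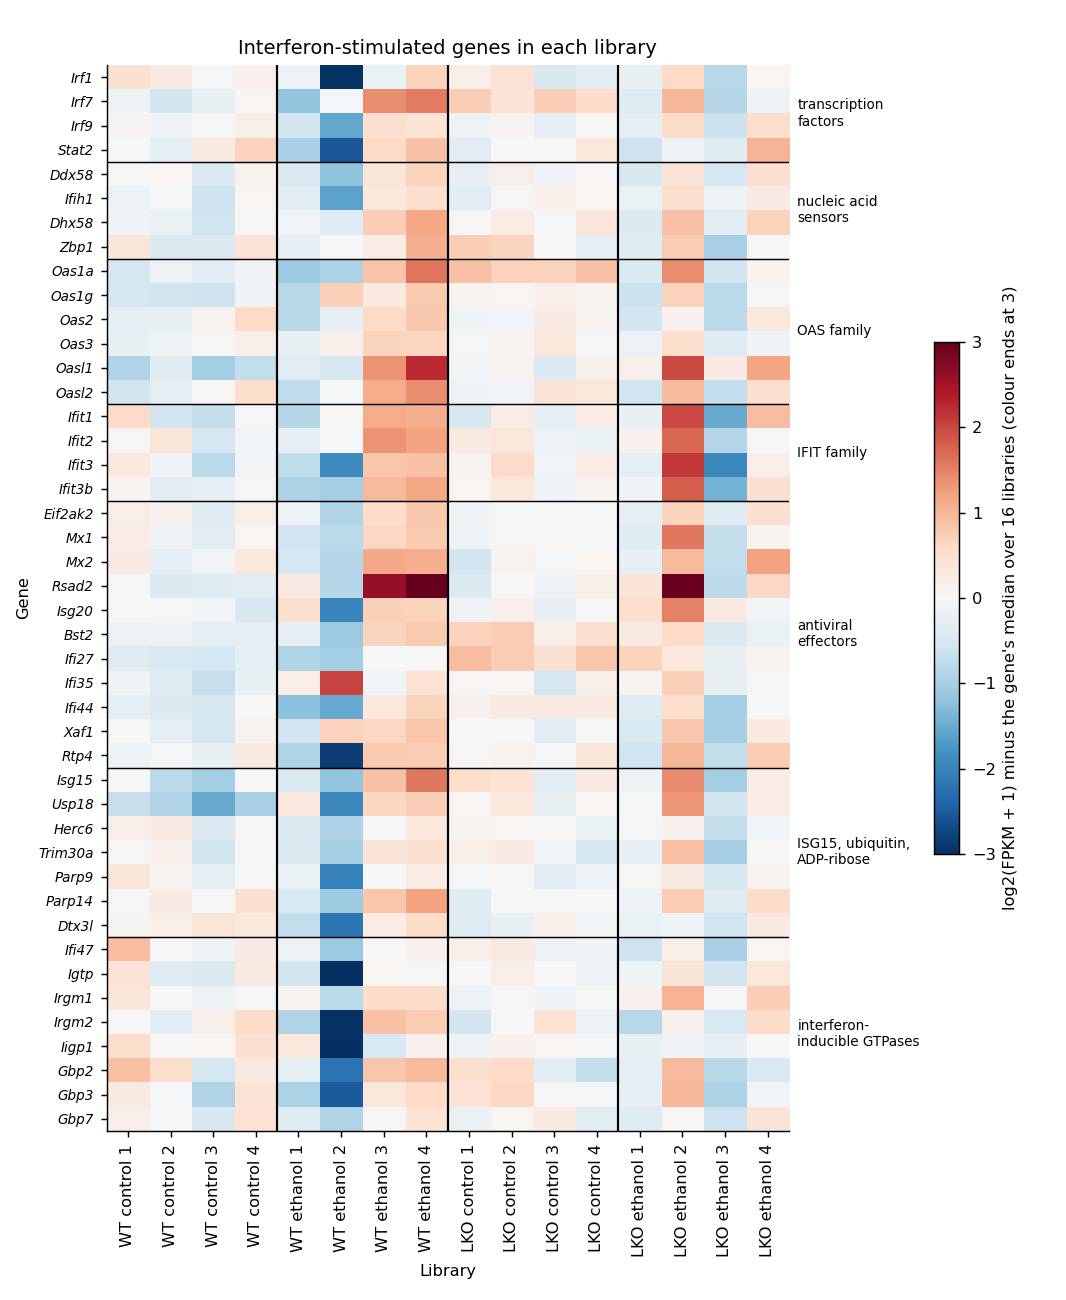
Heat map of the 44 members (y axis, ordered by role) in the 16 libraries (x axis), coloured by log2(FPKM + 1) minus the gene's median over the 16 libraries, with colour ending at 3 in both directions. WT ethanol libraries 3 and 4 and LKO ethanol library 2 are red for most members, and WT ethanol library 2 and LKO ethanol library 3 are blue for most.

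With all 16 libraries, limma called 0 of 43 members between the ethanol and control diets in WT, where 4.18% of all genes tested were called. Only 2 members had an unadjusted p under 0.05 (19.7% of all genes), and limma-voom on the recovered reads also called 0. In LKO, 0 of 43 members were called and 0 had an unadjusted p under 0.05, where 0.425% of all genes were called and 9.19% had such a p, and limma-voom called 0. Over both genotypes, 1 of 43 members was called, Oasl1, which was higher on ethanol. In that comparison 7.78% of all genes were called and 4.59% were called higher, so the members' share was no larger than that of all genes. The median log2 fold change of the members was 0.03 in WT, -0.02 in LKO and -0.07 over both genotypes, and that of all genes was -0.02, 0.06 and 0.02. Without WT ethanol library 2 the value over both genotypes was 0.11 for the members and 0.11 for all genes. In WT 22 of 43 members had a positive value, and in LKO 18 of 43.

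Leaving out WT ethanol library 2 changed the WT values. The median of the members was then 0.36, with 34 of 43 positive, and the median of all genes was 0.17, with 69.0% positive. Usp18, Oasl1 and Rsad2 were called higher on ethanol in WT, where 9.48% of all genes were called and 7.23% were called higher. Over both genotypes Oasl1, Usp18, Isg20 and Rsad2 were called higher, where 20.5% of all genes were called and 14.8% called higher. Neither share was above that of all genes. In LKO, 0 members were called by limma without that library, where 3.62% of all genes were, and 4 members and 19.0% of all genes had an unadjusted p under 0.05. A term for the sides of the libraries, added while that library was left out, gave 4 called members in WT (19.7% of all genes) and 6 over both genotypes (32.6% of all genes), and for LKO against WT over both diets 1 (11.1% of all genes). When each library was weighted by its residual spread, 22 of 43 members were called in WT, 21 of them higher and 1 lower (Iigp1), but so were 38.4% of all genes. Over both genotypes it was 10 members, 8 higher and 2 lower, and 36.7% of all genes. The highest weight went to WT ethanol library 3 (4.998), and those of WT ethanol libraries 1 and 2 were 0.278 and 0.0418.

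The WT response also differed between the sides on which the libraries lay, as a description with no test that was chosen after seeing the data. Between libraries 3 and 4 of the WT groups, 42 of 43 members were higher on ethanol (median 0.75), and 76.0% of all genes were higher (median 0.27). Between libraries 1 and 2, 5 of 43 members were higher (median -0.73), or 7 of 43 (median -0.50) without WT ethanol library 2, where 43.8% of all genes were higher. In LKO, 25 of 43 members were higher between libraries 1 and 2 (62.7% of all genes) and 13 of 43 between libraries 3 and 4 (47.6% of all genes).

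The second comparison asked what loss of Zfp36l1 did to the members on each diet. On the control diet, 7 members were higher in every LKO library than in any WT library: Irf7, Usp18, Oas1a, Oas1g, Ifi27, Ifi44 and Bst2. That is 7 of 43 tested members, where 1.61% of all genes tested were higher without overlap. No member was lower without overlap, where 7.64% of all genes were. None of the 43 members was called by limma, where 0.00885% of all genes were called, and 2 had an unadjusted p under 0.05 (3.45% of all genes). Limma-voom also called 0. In a fit of these groups alone, Ifi27 and Oas1a were called, beside 0.115% of all genes. Library weights gave 4 called members, Bst2, Ifi27, Oas1a and Usp18, beside 2.3% of all genes, and leaving out WT ethanol library 2 gave 0, beside 0.0443%, with 4 members and 9.60% of all genes at an unadjusted p under 0.05. The median of the members was 0.10 and that of all genes -0.10. Median-of-ratios scaling of the libraries moved the median of all genes by over 0.1, to 0.00063, and that of the members to 0.19. Within the sides, as a description with no test, LKO was higher in 24 of 43 members between libraries 1 and 2 (34.2% of all genes). Between libraries 3 and 4 it was higher in 28 of 43 (35.2% of all genes), and the medians were 0.08 and 0.12.

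On the ethanol diet, no member separated the genotypes: 0 were higher in LKO without overlap (0.894% of all genes) and 0 lower (1.8% of all genes). Limma called 0 of 43, where 0.0797% of all genes were called, 1 member had an unadjusted p under 0.05 (11.9% of all genes), and limma-voom called 0. The median of the members was 0.09 with all libraries and -0.23 without WT ethanol library 2, when 3 of 43 members and 19.2% of all genes were positive. The median of all genes was then also -0.23, 0.221% of them were called by limma, and 0 members were, with 1 member and 17.1% of all genes at an unadjusted p under 0.05. With library weights, 16 members were called, all lower in LKO, beside 30.7% of all genes. Within the sides, again a description with no test and chosen after seeing the data, the values had opposite signs. Between libraries 1 and 2, LKO was higher in 42 of 43 members (71.1% of all genes), with a median of 1.26, and in 41 of 43 (60.1% of all genes) with a median of 0.68 without WT ethanol library 2. Between libraries 3 and 4, LKO was higher in 1 of 43 members (15.3% of all genes), with a median of -0.88.

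The difference between the genotypes in their response to ethanol was tested as an interaction. Limma called 0 of 43 members and 0% of all genes, 1 member had an unadjusted p under 0.05 (3.2% of all genes), and limma-voom called 0. Library weights gave 9 called members, all lower, beside 4.48% of all genes. Over both diets, 0 of 43 members were called between LKO and WT, where 0.142% of all genes were called, 1 member had an unadjusted p under 0.05 (10.4% of all genes), and limma-voom called 0. Without WT ethanol library 2, Ifi27 was called higher in LKO, where 1.07% of all genes were called and 0.363% called higher. Library weights gave 7 called members, 1 higher and 6 lower, beside 34.1% of all genes. The medians of the members were 0.08 for the interaction and 0.11 for LKO over both diets, and -0.30 and -0.07 without that library.

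**Figure D3:**
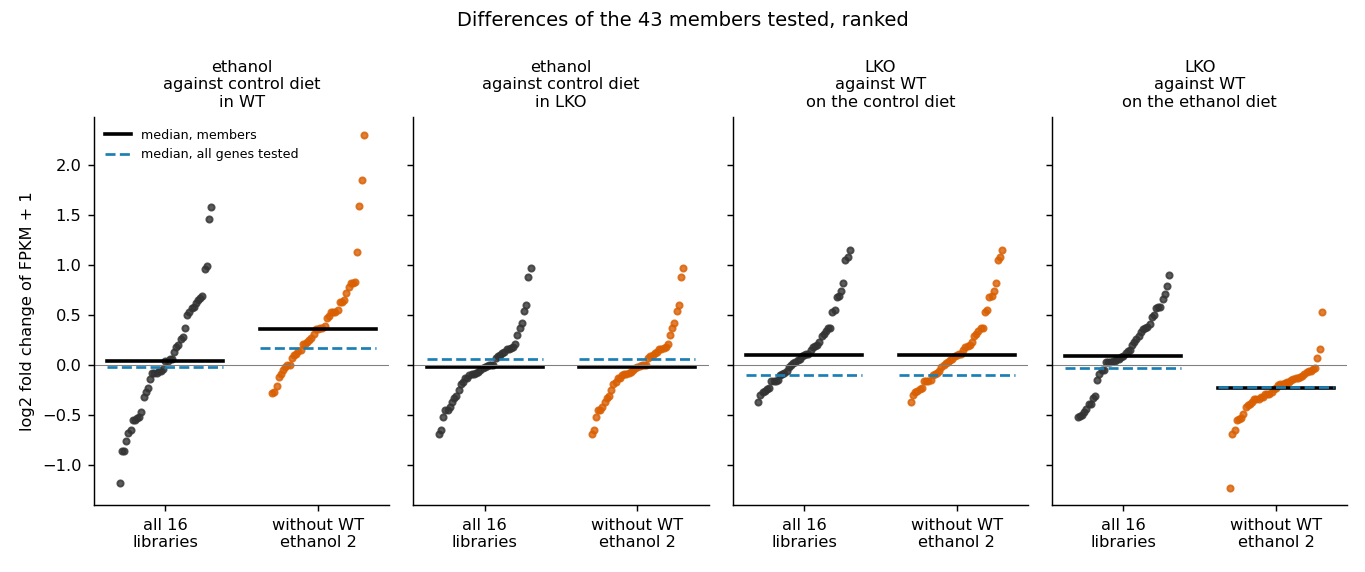
Log2 fold changes of FPKM + 1 (y axis) of the 43 tested members, ranked within each set, for 4 comparisons (panels), with all 16 libraries and without WT ethanol library 2 (x axis). Solid lines are medians of the members and dashed lines medians of all genes tested. Leaving out the library moves the members' median from 0.03 to 0.36 in WT ethanol against control and from 0.09 to -0.23 in LKO against WT on ethanol.

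Among the transcription factors, Irf7 had the highest level. It is the factor that amplifies type I interferon production, and its gene lies on chromosome 7 from 141262706 to 141266481 in GRCm38 (ENSMUSG00000025498). Irf7 stood at 20.3, 15.1, 19.2 and 23.8 FPKM in WT control libraries 1 to 4 and at 38.3, 29.8, 38.3 and 33.9 FPKM in LKO control. It stood at 9.60, 21.6, 60.9 and 68.9 FPKM in WT ethanol and at 17.3, 46.5, 12.1 and 20.2 FPKM in LKO ethanol. The LKO control libraries lay above all WT control libraries, while on ethanol the groups overlapped, with WT libraries 3 and 4 and LKO library 2 high. LKO against WT gave a value of 0.82 in controls (SE 0.49, adjusted p = 1.0) and of -0.53 on ethanol (adjusted p = 0.702). The interaction was -1.35 (SE 0.70, adjusted p = 0.927), and leaving out 1 library at a time it ranged from -1.88 to -0.97. With library weights it was -2.39 (adjusted p = 0.0107), where 4.48% of all genes were called. Between libraries 1 and 2 LKO exceeded WT on ethanol by 0.93, or by 1.47 without WT ethanol library 2, and between libraries 3 and 4 the value was -1.98. Irf1, Irf9 and Stat2, the other factors of the set, had means over the 16 libraries of 11, 8.53 and 15.71 FPKM. They were not called in any comparison with or without WT ethanol library 2.

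Among the nucleic acid sensors, Ddx58 (RIG-I, a cytosolic sensor of viral RNA) had the highest level. Ddx58 stood at 7.54, 7.99, 5.42 and 8.24 FPKM in WT control and at 6.28, 8.78, 7.05 and 7.65 FPKM in LKO control. On ethanol it stood at 5.32, 2.71, 10.1 and 12.7 FPKM in WT and at 5.12, 10.2, 5.01 and 11.1 FPKM in LKO. The 4 groups overlapped, and the ethanol groups spanned a wider range than the control groups in both genotypes. On ethanol the log2 fold change between LKO and WT was 0.12 (SE 0.35, adjusted p = 0.926), which was -0.23 (adjusted p = 0.649) without WT ethanol library 2. It was also negative without LKO ethanol library 2 or LKO ethanol library 4, and 0.39 without WT ethanol library 4. The other sensors were Ifih1 (MDA5) and Dhx58 (LGP2), which also bind RNA, and Zbp1, which binds nucleic acids in the Z form. Their means over the 16 libraries were 6.62, 4.44 and 4.04 FPKM. None of the sensors was called by limma with or without WT ethanol library 2. With library weights Ifih1 and Dhx58 were called higher on ethanol in WT, where 38.4% of all genes were called.

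The enzymes of the OAS family make the messenger that activates RNase L, and Oasl1, a family member known to restrain translation of Irf7 mRNA, was its most abundant gene. The gene lies on chromosome 5 from 114923240 to 114937915 (ENSMUSG00000041827). Oasl1 stood at 2.98, 4.79, 2.597 and 3.48 FPKM in WT control and at 4.995, 4.31, 17.8 and 34.2 FPKM in WT ethanol. It stood at 5.96, 6.90, 4.60 and 7.10 FPKM in LKO control and at 7.30, 28.5, 7.84 and 15.8 FPKM in LKO ethanol. In LKO all ethanol libraries lay above all control libraries, by a narrow margin in libraries 1 and 3, and WT ethanol library 2 lay within the range of the WT controls. Such separation on ethanol was seen for 1 member in LKO, where 8.15% of all genes were higher without overlap, and 0 members were lower without overlap, where 4.14% of all genes were. The group means were 3.46 ± 0.954 and 15.3 ± 14.01 FPKM (SD, n = 4) in WT and 6.14 ± 1.14 and 14.9 ± 9.87 FPKM in LKO.

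Over both genotypes Oasl1 rose on ethanol, by 1.21 on the log2 scale (SE 0.36, adjusted p = 0.0471). Within WT the value was 1.46 (SE 0.51, adjusted p = 0.115) and within LKO 0.97 (SE 0.51, adjusted p = 0.621). Without WT ethanol library 2 the value over both genotypes was 1.41 (adjusted p = 0.00857) and that in WT 1.85 (adjusted p = 0.0286). The value in WT was 0.94 without WT ethanol library 4, and that in LKO was 0.60 without LKO ethanol library 2. The call over both genotypes was kept when WT ethanol library 1, WT ethanol library 2 or LKO ethanol library 1 was left out, and lost when any of the other 13 libraries was, with adjusted p from 0.00857 to 0.111. It was also lost with a pseudocount of 0.1 (adjusted p = 0.0506) and with a wider set of genes (adjusted p = 0.0978). Over the sides, the difference was 0.70 between libraries 1 and 2 without WT ethanol library 2 and 1.77 between libraries 3 and 4.

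Oas1a and Oas1g, whose similar windows are printed above, were both higher in LKO than in WT on the control diet without overlap. Oas1a (chromosome 5, 120896256 to 120907521, minus strand) stood at 1.42, 2.16, 1.79 and 2.27 FPKM in WT control and at 5.39, 4.59, 4.58 and 5.36 FPKM in LKO control. On ethanol Oas1a stood at 0.5998, 0.805, 5.33 and 9.53 FPKM in WT and at 1.58, 8.17, 1.32 and 2.72 FPKM in LKO. The control groups were tight and separate, with means of 1.91 ± 0.385 and 4.98 ± 0.455 FPKM (SD, n = 4), while the ethanol groups overlapped over most of their range. The log2 fold change of LKO against WT on the control diet was 1.05 (SE 0.51, adjusted p = 1.0). Oas1g stood at 0.822, 0.806, 0.706 and 1.46 FPKM in WT control and at 1.80, 1.75, 1.93 and 1.82 FPKM in LKO control. Oas1g stood at 0.468, 3.32, 2.23 and 3.53 FPKM in WT ethanol and at 0.685, 3.24, 0.496 and 1.51 FPKM in LKO ethanol. All LKO control libraries lay above the WT controls, and the ethanol groups overlapped. The interaction of Oas1g was -0.999 (SE 0.47, adjusted p = 0.927), and -0.84 without WT ethanol library 2. With library weights it was called lower, where 4.48% of all genes were called. Oas2, Oas3 and Oasl2 had means over the 16 libraries of 1.42, 0.561 and 2.27 FPKM. Oas2 and Oasl2 were called only with library weights, beside 4.48% to 38.4% of all genes, depending on the comparison.

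The IFIT proteins bind viral RNA and block its translation. Ifit3, which supports Ifit1 in this task, had the highest level of the family. Ifit3 stood at 15.75, 11.4, 6.73 and 11.6 FPKM in WT control and at 13.1, 18.8, 11.8 and 14.6 FPKM in LKO control. On ethanol it stood at 6.98, 2.61, 22.8 and 23.8 FPKM in WT and at 10.004, 57.3, 2.502 and 14.4 FPKM in LKO. LKO ethanol library 2 was the highest of the 16 and LKO ethanol library 3 the lowest, so the widest range lay within 1 group. LKO against WT over both diets gave 0.31 (SE 0.48, adjusted p = 0.871), and 0.034 without WT ethanol library 2. Leaving out LKO ethanol library 2 turned it to -0.038, and leaving out the low library 3 of that group raised it to 0.64. Ifit1, Ifit2 and the near copy Ifit3b, with means of 7.04, 2.38 and 3.19 FPKM, were also highest in LKO ethanol library 2 and lowest in LKO ethanol library 3. These genes were called only with library weights, beside 4.48% to 38.4% of all genes, depending on the comparison. Ifit3 was not called in any fit run.

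Among the antiviral effectors, Rsad2 (viperin, an enzyme that makes a chain-terminating nucleotide) had the widest range on the log2 scale. Its gene lies on chromosome 12 from 26442746 to 26456452 on the minus strand. Rsad2 stood at 2.13, 1.37, 1.46 and 1.55 FPKM in WT control and at 2.76, 0.748, 18.2 and 28.3 FPKM in WT ethanol. It stood at 1.35, 2.17, 1.93 and 2.57 FPKM in LKO control and at 3.12, 23.4, 0.8294 and 3.86 FPKM in LKO ethanol. WT ethanol libraries 3 and 4 and LKO ethanol library 2 were far above all control libraries, while WT ethanol library 2 and LKO ethanol library 3 were below all of them. The log2 fold change on ethanol in WT was 1.58 (SE 0.76, adjusted p = 0.261) with all libraries and 2.30 (SE 0.70, adjusted p = 0.0496) without WT ethanol library 2, and it was 0.94 (adjusted p = 0.441) without WT ethanol library 4. Over both genotypes it was 1.23 (adjusted p = 0.184) and 1.59 (adjusted p = 0.0278). In WT the difference between libraries 1 and 2 was -0.087, or 0.47 without WT ethanol library 2, and that between libraries 3 and 4 was 3.24. In LKO the differences were 1.87 and -0.12.

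Isg20, an exonuclease that degrades viral RNA, carried the gamma-activated site shown above. Isg20 stood at 2.99, 2.78, 2.72 and 1.81 FPKM in WT control and at 4.49, 0, 5.49 and 5.26 FPKM in WT ethanol. It stood at 2.67, 3.37, 2.38 and 2.88 FPKM in LKO control and at 4.59, 10.2, 3.69 and 2.75 FPKM in LKO ethanol. Apart from library 2, which was listed at 0, the WT ethanol libraries lay above all WT controls, and in LKO only ethanol library 4 lay within the control range. The log2 fold change over both genotypes was 0.36 (SE 0.33, adjusted p = 0.586), and 0.69 (SE 0.19, adjusted p = 0.0177) without WT ethanol library 2. It was 0.20 (adjusted p = 0.82) without LKO ethanol library 2 and 0.24 without WT ethanol library 3.

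Ifi27, a mitochondrial and nuclear membrane protein induced by type I interferon, showed the largest genotype difference on the control diet on the log2(FPKM + 1) scale, although the ratio of the group means was 2.24 for Ifi27 and 2.61 for Oas1a. Its gene lies on chromosome 12 from 103434211 to 103440239 (ENSMUSG00000064215). Ifi27 stood at 105, 98.8, 92.8 and 112 FPKM in WT control and at 259, 229, 187 and 241 FPKM in LKO control. On ethanol it stood at 71.7, 64.9, 134 and 136 FPKM in WT and at 219.6, 168, 116 and 144 FPKM in LKO. The control groups did not overlap, with means of 102 ± 8.202 and 229 ± 30.5 FPKM (SD, n = 4). On ethanol, LKO library 3 lay below WT libraries 3 and 4, and the other LKO libraries lay above all WT libraries. The log2 fold change of LKO against WT was 1.15 in controls (SE 0.29, adjusted p = 0.628) and 0.71 on ethanol (SE 0.29, adjusted p = 0.35), where it was 0.52 without WT ethanol library 2. Over both diets the value was 0.93 (SE 0.20, adjusted p = 0.0928), and 0.84 (SE 0.17, adjusted p = 0.0326) without WT ethanol library 2. On the control diet the difference was 1.25 between libraries 1 and 2 and 1.05 between libraries 3 and 4, and on ethanol it was 1.41 without WT ethanol library 2 and -0.06. Within LKO, ethanol against control gave -0.53 (SE 0.29, adjusted p = 0.639).

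Bst2 (tetherin, which holds budding virus at the cell surface) was the most abundant member, with a mean over the 16 libraries of 280.5 FPKM. Bst2 stood at 219.7, 222, 200.1 and 203 FPKM in WT control and at 399, 409.9, 273 and 347 FPKM in LKO control. On ethanol it stood at 208, 116, 392 and 426 FPKM in WT and at 299.5, 375, 183 and 213 FPKM in LKO. Every LKO control library lay above every WT control library, and the ethanol groups overlapped. LKO against WT on the control diet gave 0.74 (SE 0.36, adjusted p = 1.0), and over both diets 0.38 (SE 0.26, adjusted p = 0.652), or 0.20 (adjusted p = 0.517) without WT ethanol library 2.

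Ifi35, which binds the factor Nmi, was the only member whose WT ethanol libraries all lay above the WT controls, where 5.62% of all genes did. No member had all WT ethanol libraries below the WT controls, where 4.45% of all genes did. Ifi35 stood at 12.2, 10.1, 7.84 and 11.2 FPKM in WT control and at 15.3, 57.0, 12.5 and 18.2 FPKM in WT ethanol. It stood at 13.5, 13.95, 9.03 and 15.0 FPKM in LKO control and at 14.2, 22.3, 11.3 and 13.01 FPKM in LKO ethanol. WT ethanol library 2, which was low for most members, was the highest library for Ifi35. The log2 fold change on ethanol in WT was 0.99 (SE 0.37, adjusted p = 0.139), and 0.53 (SE 0.23, adjusted p = 0.163) without that library. LKO against WT on ethanol gave -0.50 (adjusted p = 0.617) and -0.04 (adjusted p = 0.927) without it.

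The remaining antiviral effectors were Eif2ak2 (PKR, the kinase that stops translation on sensing double-stranded RNA), the dynamin-like GTPases Mx1 and Mx2, Ifi44, Xaf1 and Rtp4. Their means over the 16 libraries ran from 0.954 FPKM for Mx1 to 9.29 FPKM for Rtp4. Of these, Eif2ak2, Mx2, Ifi44 and Xaf1 were called with library weights, beside 4.48% to 38.4% of all genes, depending on the comparison. None was called in any other fit run. Mx2 is annotated as a polymorphic pseudogene. Of the 11 effectors, 8 had a positive value on ethanol in WT and 6 in LKO, with medians of 0.13 and 0.15, and without WT ethanol library 2 all 11 were positive in WT, with a median of 0.46.

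Isg15 is a ubiquitin-like protein that is joined to other proteins during the response, and Usp18 removes it and also blocks the type I receptor. Isg15 stood at 15.8, 8.65, 7.38 and 16.1 FPKM in WT control and at 23.6, 21.6, 12.5 and 19.2 FPKM in LKO control. On ethanol it stood at 11.49, 6.42, 30.2 and 49.9 FPKM in WT and at 14.3, 44.3, 7.37 and 18.7 FPKM in LKO. The control groups overlapped only in LKO library 3, and the ethanol groups overlapped. LKO against WT on the control diet gave 0.67 (SE 0.55, adjusted p = 1.0).

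Usp18 (chromosome 6, 121245906 to 121270917, ENSMUSG00000030107) was one of the members whose LKO controls lay above all WT controls. Usp18 stood at 9.39, 7.96, 4.87 and 7.51 FPKM in WT control and at 20.1, 3.37, 25.1 and 26.7 FPKM in WT ethanol. It stood at 16.5, 19.99, 13.3 and 16.3 FPKM in LKO control and at 15.2, 40.0, 10.4 and 18.4 FPKM in LKO ethanol. In WT, 3 ethanol libraries lay above all controls and library 2 below all of them, and in LKO the diets overlapped. The log2 fold change on ethanol in WT was 0.96 (SE 0.49, adjusted p = 0.29), and 1.59 (SE 0.33, adjusted p = 0.00923) without WT ethanol library 2. Over both genotypes it was 0.57 (adjusted p = 0.377) and 0.88 (adjusted p = 0.0118). LKO against WT on the control diet gave 1.07 (SE 0.49, adjusted p = 1.0), with means of 7.43 ± 1.89 and 16.5 ± 2.73 FPKM (SD, n = 4), and over both diets 0.68 (SE 0.35, adjusted p = 0.514), or 0.37 (adjusted p = 0.318) without WT ethanol library 2.

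The ubiquitin ligases Herc6, Trim30a and Dtx3l and the ADP-ribosyl transferases Parp9 and Parp14 had means over the 16 libraries of 3.67, 3.12, 8.04, 14.2 and 5.26 FPKM. Of these, Dtx3l and Parp14 were called with library weights, beside 4.48% to 38.4% of all genes, depending on the comparison. None was called in any other fit run. Parp9 and Dtx3l overlap by 682 bases on opposite strands of chromosome 16, so without strand their reads there cannot be told apart. In the 7 genes of this role the median difference on ethanol was -0.06 in WT, or 0.22 without WT ethanol library 2, and -0.03 in LKO.

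The interferon-inducible GTPases attack the vacuoles of intracellular pathogens and are known chiefly as targets of interferon gamma. Iigp1 was their most abundant gene. It stood at 128, 88.7, 92.0 and 122 FPKM in WT control and at 109.6, 6.06, 63.9 and 96.2 FPKM in WT ethanol. It stood at 80.4, 96.4, 91.8 and 85.0 FPKM in LKO control and at 76.2, 82.0, 74.9 and 88.3 FPKM in LKO ethanol. WT ethanol library 2 was far below the other 15 libraries, and the remaining values overlapped. Ethanol in WT gave -1.19 (SE 0.59, adjusted p = 0.279), and -0.27 (SE 0.20, adjusted p = 0.409) without that library. With library weights it gave -0.62 (adjusted p = 0.017), where 38.4% of all genes were called. WT ethanol library 3, at 63.9 FPKM, had the highest of those weights, 4.998. On ethanol in WT, all 5 tested members of the OAS family had a positive value. Of the 8 GTPases 1 did, and 4 of 8 without WT ethanol library 2, a difference that was not tested. In LKO the families did not differ in this way: 1 of 5 OAS members and 1 of 8 GTPases were positive, with medians of -0.26 and -0.11.

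Igtp stood at 31.8, 18.4, 17.3 and 28.7 FPKM in WT control and at 23.9, 27.6, 23.8 and 21.2 FPKM in LKO control. On ethanol it stood at 15.9, 1.85, 24.9 and 24.4 FPKM in WT and at 21.9, 31.3, 15.66 and 30.2 FPKM in LKO. The groups overlapped apart from the low WT ethanol library 2. LKO against WT on ethanol gave 0.90 (SE 0.52, adjusted p = 0.508), and 0.16 (SE 0.26, adjusted p = 0.738) without that library. Igtp and Irgm2 overlap by 7974 bases on the same strand of chromosome 11, so their reads there can be shared. Irgm1, a regulator of the other GTPases, stood at 16.2, 12.1, 11.02 and 11.9 FPKM in WT control and at 13.2, 6.60, 18.4 and 18.5 FPKM in WT ethanol. It stood at 10.9, 12.1, 11.4 and 12.5 FPKM in LKO control and at 13.6, 26.6, 11.8 and 21.2 FPKM in LKO ethanol. In LKO, 3 ethanol libraries lay above all controls, and library 3 lay within their range. Ethanol in LKO gave 0.54 (SE 0.31, adjusted p = 0.667), and 0.34 without LKO ethanol library 2. Ifi47, Irgm2, Gbp2, Gbp3 and Gbp7 had means over the 16 libraries of 8.54, 11.8, 4.30, 7.19 and 3.88 FPKM. Of these, Ifi47, Irgm2 and Gbp2 were called with library weights, beside 4.48% to 38.4% of all genes, depending on the comparison. None was called in any other fit run.

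**Figure D4:**
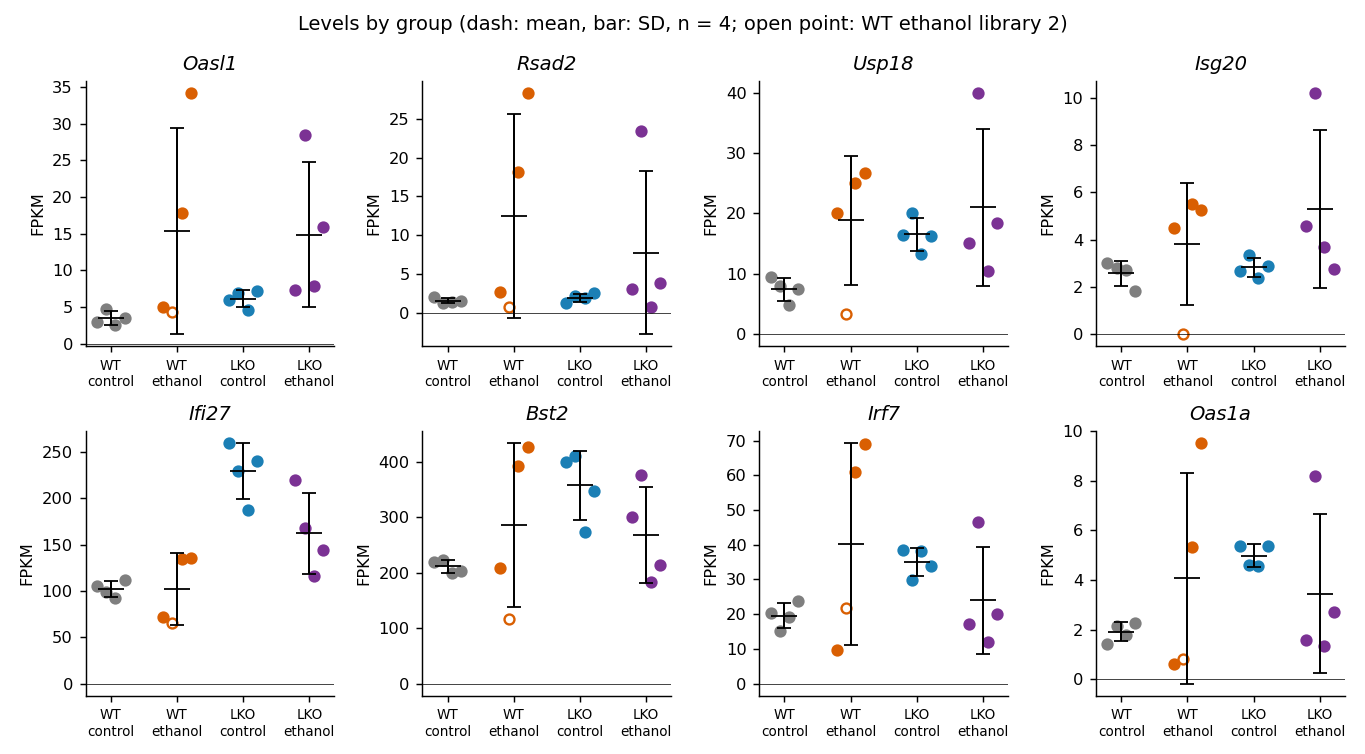
FPKM (y axes) of 8 members in the 4 groups (x axes). Points are libraries, the open point is WT ethanol library 2, dashes are group means and bars SDs (n = 4). Oasl1, Rsad2, Usp18 and Isg20 have ethanol libraries above all controls of the same genotype beside others near or below them, and Ifi27, Bst2, Irf7 and Oas1a have LKO control libraries that lie above all WT control libraries.

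The other genes of the pathway came from a list of 73 genes, of which 71 were in the table and 56 were tested. With all libraries, Ikbke, a kinase that activates Irf3 and Irf7, was the only one called, and it was higher on ethanol. Ikbke stood at 4.74, 4.65, 2.47 and 5.18 FPKM in WT control and at 9.67, 9.15, 7.64 and 15.74 FPKM in WT ethanol. It stood at 2.90, 3.27, 3.79 and 3.89 FPKM in LKO control and at 5.39, 10.4, 4.73 and 6.46 FPKM in LKO ethanol. All ethanol libraries lay above all control libraries of the same genotype, WT library 2 among them. Its log2 fold change was 1.12 in WT (SE 0.26, adjusted p = 0.0247) and 0.94 over both genotypes (SE 0.19, adjusted p = 0.00537). That is 1 of 56 in both comparisons, where 4.18% and 7.78% of all genes were called. Without WT ethanol library 2, Ifngr2 (1.08, adjusted p = 0.0178), Ticam1 (0.65, adjusted p = 0.0394) and Traf3 (0.86, adjusted p = 0.0308) were also called higher in WT, which made 4 of 56, close to the 7.23% of all genes. Ptpn2, a phosphatase that restrains the kinases, was then called higher in LKO (0.64, adjusted p = 0.0219). Over both genotypes 8 of 56 were called higher and 0 lower without that library, a share close to the 14.8% of all genes called higher. They were Ikbke, Ifngr2, Ticam1, Tbk1, Traf3, Ptpn2, Ifitm1 and Lgals3bp.

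Of the 10 interferon ligands on the list, Ifna1, Ifna2, Ifna4, Ifna5, Ifnb1, Ifne, Ifnl2 and Ifnl3 were listed at 0 in all 16 libraries. Ifng stood at 3.27 FPKM in WT ethanol library 2 and at no more than 0.261 FPKM in any other library. Ifnk stood between 0 and 0.561 FPKM, and none of the 10 ligands passed the filter for testing.

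Markers of other liver cells also varied between libraries. All 10 Kupffer cell and macrophage markers were above 0 in every library, and their summed level ranged from 208 to 546 FPKM in WT control, 355 to 705 FPKM in WT ethanol, 189.8 to 676 FPKM in LKO control and 133 to 715 FPKM in LKO ethanol. WT ethanol libraries 3 and 4 and LKO ethanol library 2, in which most members were high, had sums of 568, 705 and 715 FPKM. LKO ethanol library 3, in which most members were low, had the lowest sum, 133 FPKM, but LKO ethanol library 4, with 23 members above all controls, had 182 FPKM. WT ethanol library 2 had 623 FPKM, of which C1qa alone gave 422.5 FPKM, while Vsig4, at 2.68 FPKM, was at its lowest of the 16 libraries. Marco was the marker of this list called higher on ethanol in WT, with means of 8.19 and 30.1 FPKM. In that comparison 4.18% of all genes were called with all libraries and 9.48% without WT ethanol library 2. The means of Adgre1 (6.47 and 5.68 FPKM), Vsig4 (27.2 and 23.6 FPKM) and Cd5l (66.8 and 66.7 FPKM) were lower in WT ethanol. Those of the other markers of the list were higher. The 5 sinusoidal endothelial cell markers summed to 36.5 to 70.2 FPKM in WT control, 12.1 to 72.6 FPKM in WT ethanol, 28.2 to 83.5 FPKM in LKO control and 34.6 to 87.4 FPKM in LKO ethanol. These sums join markers that went opposite ways. Mean Lyve1 was 3.02 FPKM in WT control and 18.7 FPKM in WT ethanol, and 4.08 and 18.7 FPKM in LKO, and limma called it higher on ethanol over both genotypes. Mean Clec4g was 33.3 and 12.6 FPKM in WT and 35.7 and 19.8 FPKM in LKO, and it was not called with or without WT ethanol library 2. The 4 stellate cell markers summed to 34.8 to 122 FPKM, 10.9 to 145 FPKM, 39.7 to 118 FPKM and 81.2 to 114 FPKM in the same groups. Both sums were lowest of the 16 in WT ethanol library 2, the endothelial sum was highest in LKO ethanol library 2, and the stellate sum was highest in WT ethanol library 4. The part of these cells in the members' levels was not tested. The 8 T and NK cell markers summed to at most 8.48 FPKM, and the 4 plasmacytoid dendritic cell markers to at most 5.86 FPKM, both in WT ethanol library 2. The 4 B cell markers summed to at most 3.13 FPKM, with means on control and ethanol of 1.34 and 0.906 FPKM in WT and 1.98 and 0.653 FPKM in LKO. The 4 neutrophil markers summed to at most 20.3 FPKM, in LKO ethanol library 2. Their means were 3.14 and 7.88 FPKM in WT and 3.58 and 12.7 FPKM in LKO. Ly6g was listed at 0 in every library except WT ethanol library 4 and LKO ethanol library 3.

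**Figure D5:**
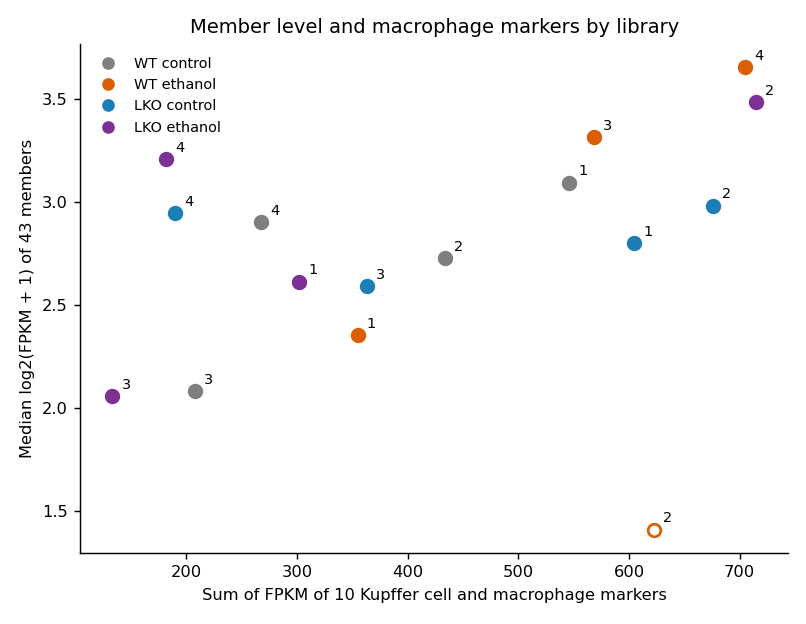
Median log2(FPKM + 1) of the 43 tested members (y axis) against the summed FPKM of 10 Kupffer cell and macrophage markers (x axis) in the 16 libraries, coloured by group and numbered by library, with WT ethanol library 2 as an open point. LKO ethanol library 4 has a high member median of 3.21 at a marker sum of 182 FPKM, and WT ethanol library 2 the lowest median, 1.41, at 623 FPKM, of which C1qa gave 422.5 FPKM.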

How the data were processed

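RNA of mouse liver was sequenced in 16 libraries, and the authors deposited 1 table of FPKM values for 35275 genes, the only values used. The submitters' processing notes name mm10, fastp, STAR 2.6.1, HTSeq and DESeq2, without their roles. The gene annotation and strand setting are not given in the sources used here. Gene symbols and positions came from GENCODE M21 (GRCm38), and promoter windows from RefSeq (GRCm38.p6). FPKM values were whole multiples of the value of 1 read: 100% of them came within 0.1 of a whole read, which gave library totals of 9890475 to 24768569 reads. These totals set the precision, and low genes in WT ethanol library 2 are the least precise.

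Genes at 1 FPKM or more in at least 4 libraries (11298) were tested as log2(FPKM + 1) in 1 limma model of the 4 groups, with gene variances moderated towards a trend over the mean level, and p-values were adjusted by Benjamini-Hochberg over all of them in each of 7 comparisons. The calculations used R 4.3.3, limma 3.58.1, Python 3.11.15, pandas 2.3.3, numpy 2.4.6 and matplotlib 3.10.9, and the model was tested on simulated data. Values in every library are given for members called with or without WT ethanol library 2, for the 3 smallest adjusted p-values of each comparison, and for the most abundant member of each role. Alternatives changed the filter, the pseudocount, the scaling, library weights, the split of libraries, the libraries used and the model (limma-voom on recovered reads). The members and lists were chosen with earlier results of these data known. Library numbers follow record order, and the labels do not say whether they pair samples.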

Additional observations from a re-analysis of the deposited data

Results flagged for a closer look

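For 16 members, the highest and lowest library of each of the 64 groups of 4 libraries were compared with the nearest other library of the group. In 2 groups the gap on the log2(FPKM + 1) scale, as a share of the whole range of the group, was above the 95% critical value of Dixon's test for 4 samples, and chance gives this in about 1 in 20 groups. Both gaps were in WT ethanol library 2, the library with 9890475 reads. Usp18 stood at 3.37 FPKM in it, while the other WT ethanol libraries stood between 20.1 and 26.7 FPKM. Isg20 was listed at 0 FPKM in it, while the others stood between 4.49 and 5.49 FPKM.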

How the results depend on the processing

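No paired analysis was run. The numbers in the sample titles all differ, and the labels do not say what they stand for. Several control and ethanol libraries at the same position in the records carry consecutive numbers, so the sources leave pairing open. For ethanol against control in WT, 0 members were called, but 1 with quantile scaling (8.25% of all genes), 1 with median-of-ratios scaling (6.77%), 22 with library weights, 4 with the term for the sides when WT ethanol library 2 was left out, and 0 to 3 when 1 library was left out. Over both genotypes, where 1 was called, 0 were called with the wider gene filter, 0 with a pseudocount of 0.1, 10 with library weights, 6 with the term for the sides when WT ethanol library 2 was left out, and 0 to 4 when 1 library was left out. For LKO against WT on the control diet, 4 were called with library weights and 2 with only the 2 groups in the fit. On ethanol 16 were called with library weights, with a median of -0.67. For the interaction 9 were called with library weights, with a median of -0.85. Over both diets 1 was called with median-of-ratios scaling (0.212% of all genes), 7 with library weights, 1 with the term for the sides when WT ethanol library 2 was left out (11.1%), and 0 to 1 when 1 library was left out. All genes were called more often too: with library weights 38.4% in WT, 36.7% over both genotypes, 2.3% for LKO on the control diet, 30.7% on ethanol, 4.48% for the interaction and 34.1% over both diets.

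Other members turned their sign as well: for LKO against WT on ethanol, 6 of 7 genes of the ISG15, ubiquitin and ADP-ribose role were positive with all libraries. Without WT ethanol library 2 it was 0 of 7. Each named member was followed only in the comparisons that led to its naming, and in these LKO against WT turned its sign in 3 members. On ethanol, Igtp was -0.086 with library weights, and Ddx58 was -0.49 with library weights and -0.21 with the term for the sides when WT ethanol library 2 was left out. Ddx58 ranged from -0.23 to 0.39 when 1 library was left out, with negative values without WT ethanol library 2, LKO ethanol library 2 or LKO ethanol library 4. Over both diets, Ifit3 was -0.37 with library weights and -0.00028 with the term for the sides when WT ethanol library 2 was left out, and ranged from -0.038 to 0.64 when 1 library was left out. The cause was not tested. Depth limits the low members most: Oas3 and Mx1 had means of 0.561 and 0.954 FPKM.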
